A study of Mus musculus with 6 samples.

Results

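The nuclear hormone receptors are transcription factors of related structure, most of them switched by small fat-soluble ligands. The 44 members described here were taken by gene symbol from the 54532 genes of the deposited expression table, and each of the 44 had a row. Polyadenylated RNA had been sequenced from cultured granulosa cells of the mouse ovary, which nurse the oocyte within the follicle and make estradiol from androgens. The untreated group held 3 libraries of cells labelled WT and given no treatment, and the cyclophosphamide group held 3 libraries of cells labelled WT and exposed for 24 h to cyclophosphamide, an alkylating chemotherapy drug. Both groups were adherent cultures in DMEM/F12 with fetal bovine serum and antibiotics. Serum carries steroids, retinoids, thyroid hormone and lipids that bind receptors of this family, and no ligand was measured. The treatment label of the cyclophosphamide samples names an injection into the abdomen, whereas the treatment protocol and the series design describe drug added to the culture, which is how the exposure is read here. Strain and age of the mice are not in the labels, and the cells are entered as a cell line under the name of the tissue alone. Nothing states that the replicates were separate cultures or animals, so the p-values speak for the spread among these libraries alone, possibly a technical one.

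Receptors of this family share a zinc-finger domain that reads short DNA elements and a pocket that holds the ligand, and a ligand in the pocket exchanges corepressors for coactivators. Steroid receptors act mainly as homodimers, the receptors for retinoids, thyroid hormone and lipids pair with a retinoid X receptor, and several orphan receptors bind as monomers. In granulosa cells the family is known for estrogen receptor beta, for the NR5A receptors that drive steroidogenic genes, and for the NR4A receptors that gonadotropins induce within the ovulatory response.

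Depth was 16458385 to 17607586 reads per library. Values are FPKM, which sets a read count against the gene length and the size of the library. Fold changes and their standard errors (SE) are differences of cyclophosphamide minus untreated of log2(FPKM + 0.1), where the added 0.1 shrinks the change of genes with low levels. Each was tested with limma across 14751 genes, with an adjusted p under 0.05 called higher or lower. The cultures carried granulosa markers unevenly. Foxl2 had a mean of 32.5 FPKM in untreated and 23.9 FPKM in cyclophosphamide libraries. Cyp19a1, the aromatase that makes estradiol, had 3 and 1 reads over the 3 libraries of each group, and Amh had 16 and 22. Of 12 tested granulosa markers, which include the member Nr5a2, 10 were lower with cyclophosphamide and 1 was higher. Over all tested genes 35.9% were lower and 33.3% higher. The summed level of the granulosa markers went from 2849 to 3018 FPKM in untreated libraries to 1061 to 1368 FPKM. Most of it came from an inhibin subunit gene in each library, so the sum mainly follows that gene. In bulk RNA, fewer cells of a type and less RNA per cell cannot be told apart, which holds for each member below.

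Of the 44 receptors 33 passed the filter on low values and were tested. With cyclophosphamide 14 of the 33 were higher (42.4%) and 10 were lower (30.3%), while over all tested genes 33.3% were called higher and 35.9% lower. Together 24 of the 33 were called, or 72.7%, near the 69.3% called over all genes, so being called does not set the family apart from other genes in these libraries. The members had a median log2 fold change of 0.27, and all tested genes had a median of -0.02. The median of the members was 0.15 without untreated replicate 3 and 0.13 with a pseudocount of 1. In 26 of the 33 (78.8%) the groups did not overlap, against 73.4% of all tested genes. Changes of at least 2-fold were called upward in 5 members (15.2%), against 10.0% of all genes. These were the orphan receptor Nr4a3, the fatty acid sensor Ppard, Rora, Nr2f2 and the retinoid X receptor Rxrb. Changes of at least 2-fold were called downward in 5 members (15.2%), against 16.6% of all genes. These were the bile acid receptor Nr1h4, the estrogen receptors Esr2 and Esr1, the NR5A receptor Nr5a2 and the corepressor-like receptor Nr0b2.

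**Figure D1:**
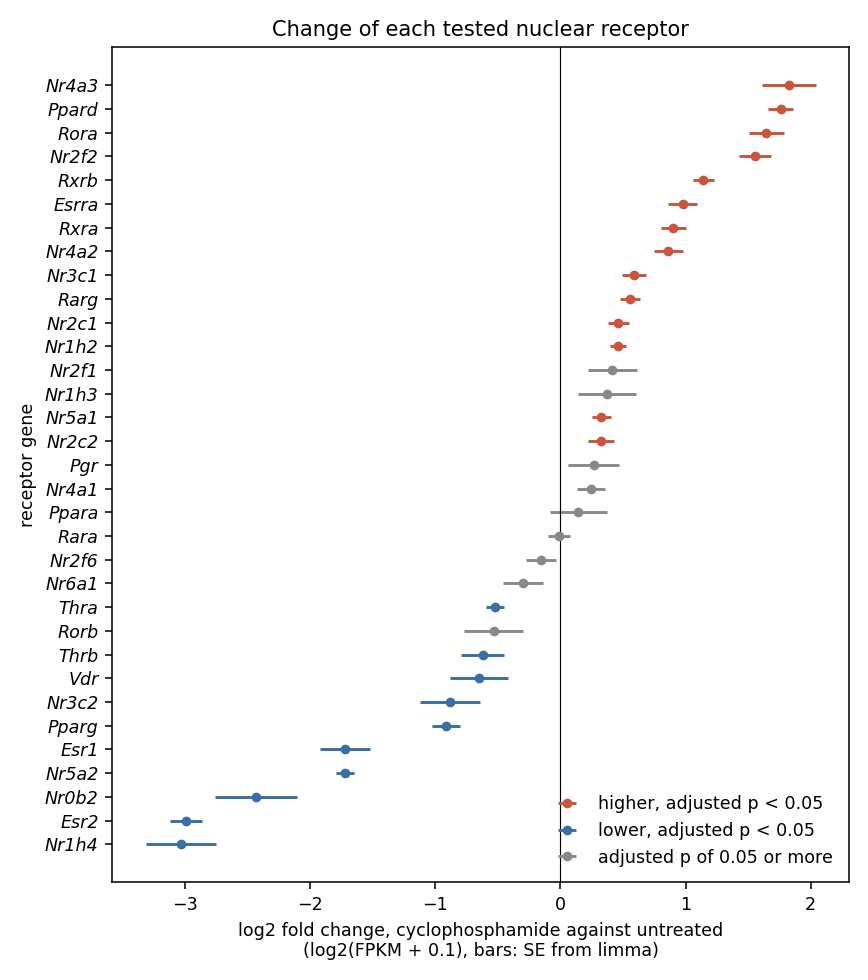
Log2 fold change on the log2(FPKM + 0.1) scale of the 33 tested receptors, cyclophosphamide against untreated, ordered by size. Points are limma estimates, bars show the SE from limma to either side, not a confidence interval, and colour gives the call. Nr1h4 at -3.03 and Esr2 at -2.99 lie at the low end and Nr4a3 at 1.83 and Ppard at 1.76 at the high end.

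Among the steroid receptors Esr2 and Esr1 fell and Nr3c1 rose. Esr2 encodes estrogen receptor beta, the main estrogen receptor of granulosa cells, and lies at chr12:76120419-76177259 on the minus strand of GRCm38. It measured 23.8, 23.4 and 25.5 FPKM in untreated libraries 1 to 3 and 3.32, 2.39 and 3.25 FPKM in cyclophosphamide libraries 1 to 3. The 3 cyclophosphamide libraries were all below the untreated ones and close to each other. The mean went from 24.2 ± 1.1 FPKM (SD, n = 3) to 2.98 ± 0.52 FPKM (SD, n = 3), 7.97-fold lower, at -2.99 ± 0.13 (SE, limma adjusted p = 1.2e-06) as a log2 fold change. Esr1, estrogen receptor alpha, is known mainly from theca and stroma in the ovary and was low throughout, at 0.972, 0.612 and 0.775 FPKM untreated and 0.151, 0.159 and 0.186 FPKM with cyclophosphamide. Its groups did not overlap either, with a log2 fold change of -1.72 ± 0.20 (SE, limma adjusted p = 0.00013) that shrank to -0.94 with a pseudocount of 0.5 and to -0.61 with a pseudocount of 1. Esr2 stayed the more abundant of the pair per kilobase in every library.

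The glucocorticoid receptor Nr3c1 moved the other way. It measured 3.98, 3.77 and 4.42 FPKM in untreated and 6.32, 5.77 and 6.31 FPKM in cyclophosphamide libraries, each treated value above each untreated one. The difference on the log2 scale was 0.59 ± 0.10 (SE, limma adjusted p = 0.00087). The mineralocorticoid receptor Nr3c2 was under 1 FPKM, with 19, 17 and 28 reads in untreated and 11, 5 and 4 reads in cyclophosphamide libraries. It was called lower, at -0.89 ± 0.24 (SE, limma adjusted p = 0.011), an adjusted p that was 0.053 when no filter on low values was applied. It had a log2 fold change of -0.31 with a pseudocount of 0.5 and -0.17 with 1, and of -1.69 in limma-voom on the recovered reads. The progesterone receptor Pgr, which granulosa cells induce after the luteinizing hormone surge, was listed between 0.0939 and 0.189 FPKM in the 6 libraries and was not called, at 0.27 ± 0.20 (SE, limma adjusted p = 0.27). Summed over the 5 steroid receptors, the level was 28.1 to 31.0 FPKM in untreated libraries and 8.55 to 10.0 FPKM with cyclophosphamide, and Esr2 made most of it in the untreated cells.

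Nr1h4 encodes FXR, the bile acid receptor, at chr10:89454234-89533585 on the minus strand. It was the most abundant of the 44 receptors per kilobase in untreated cells, at 56.9, 54.6 and 52.0 FPKM. With cyclophosphamide it measured 11, 4.38 and 5.83 FPKM, and its rank among the members went from 1 to 16. Every treated library was below every untreated one, but the treated libraries differed among themselves, with replicate 1 above replicates 2 and 3. The mean went from 54.5 ± 2.5 FPKM (SD, n = 3) to 7.07 ± 3.5 FPKM (SD, n = 3), and the log2 fold change was -3.03 ± 0.28 (SE, limma adjusted p = 3.8e-05), or 8.19-fold lower. Left out one at a time, the libraries moved this estimate between -3.40 and -2.75.

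Nr0b2 encodes SHP, a receptor without a DNA-binding domain that binds and represses other receptors, and FXR and the NR5A receptors are known to induce it in liver. It measured 2.86, 3.09 and 2.30 FPKM in untreated and 0.805, 0.345 and 0.256 FPKM in cyclophosphamide libraries, from 53, 61 and 44 reads against 15, 7 and 5 reads. Treated values were all below untreated ones, and replicate 1 was again the highest of the treated libraries. The difference was -2.44 ± 0.33 (SE, limma adjusted p = 0.00029), or -1.37 with a pseudocount of 1. The other receptor of this kind, Nr0b1 (DAX1), had no read in any library, where 3 reads in a library would have given at most 0.102 FPKM.

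The 250 bases before the RefSeq start of Nr0b2 are chr4:133553126-133553375 on the plus strand of GRCm38.p6. They are shown because NR5A receptors read elements with the core CAAGG. Nr0b2 and Nr5a2 were both lower, while Nr5a1 was called higher. Capitals mark CAAGG on either strand.
Nr0b2: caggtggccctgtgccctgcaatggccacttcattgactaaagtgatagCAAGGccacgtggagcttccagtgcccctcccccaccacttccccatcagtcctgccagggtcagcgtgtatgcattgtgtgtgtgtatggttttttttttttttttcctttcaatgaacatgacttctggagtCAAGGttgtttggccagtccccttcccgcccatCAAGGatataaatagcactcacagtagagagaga
The core was found 3 times, 201, 67 and 34 bases before the start. At least 3 matches are present in 3.0% of 32851 mouse promoter windows of this length. At least 1 is in 46.0% of them and in 41.0% of the members' windows, so a single match is common. The cut of 3 equals the count in Nr0b2, so its share is no test of this window. Among the windows of 40 members with an entry, Nr0b2 and Vdr held 3 or more. The longer NR5A element was searched only as CAAGGTCA, which is present in 1.33% of all windows and was in no member's window. Other forms were not searched, and the first match in Nr0b2 continues as CAAGGCCA. A match is a stretch of letters and no binding was measured.

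The NR5A receptors bind DNA as monomers and activate genes of cholesterol import and steroid synthesis. Both were among the most abundant members, and they moved in opposite directions. Nr5a2 (LRH-1), needed in granulosa cells for ovulation, lies at chr1:136842571-136960448 on the minus strand. It measured 30.8, 28.3 and 30.1 FPKM in untreated and 9.54, 8.77 and 8.48 FPKM in cyclophosphamide libraries, with little spread within either group. The log2 fold change was -1.72 ± 0.07 (SE, limma adjusted p = 1e-06), or 3.31-fold lower, and its rank among the members went from 4 to 13. Nr5a1 (SF-1) measured 38.3, 44.2 and 45.4 FPKM and then 53.4, 53.5 and 52.9 FPKM. Its groups did not overlap, and the difference was small, at 0.33 ± 0.08 (SE, limma adjusted p = 0.0052), or 0.21 with upper-quartile scaling. Nr5a1 was thereby the highest of the 44 in the treated cells. Nr6a1, an orphan receptor known from germ cells, measured 1.07, 0.910 and 1.0 FPKM untreated and 0.718, 0.732 and 0.931 FPKM treated, with overlapping groups, and was not called, at -0.30 ± 0.16 (SE, limma adjusted p = 0.13).

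**Figure D2:**
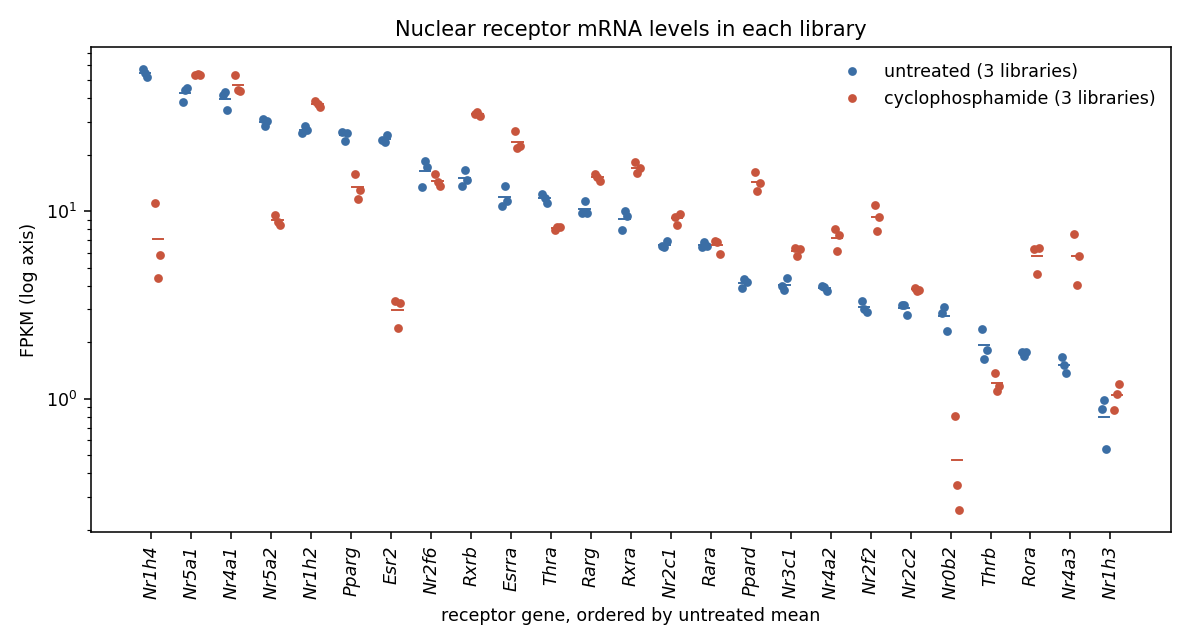
FPKM on a log axis of the 25 receptors with a mean of at least 1 FPKM in either group, 1 point per library, untreated and cyclophosphamide libraries in separate colours. Nr1h4, Esr2 and Nr5a2 drop from between 23.4 and 56.9 FPKM to between 2.39 and 11 FPKM, while Nr5a1 and Nr1h2 lie near the top in both groups.

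Within the peroxisome proliferator-activated receptors, which sense fatty acids, the 2 abundant members moved in opposite directions and ended at similar levels. Pparg, at chr6:115360951-115490399 on the plus strand and known in granulosa cells as a receptor that gonadotropins turn down, measured 26.4, 23.6 and 25.9 FPKM in untreated and 15.8, 11.6 and 12.9 FPKM in cyclophosphamide libraries. Each treated value was below each untreated one, with a log2 fold change of -0.92 ± 0.11 (SE, limma adjusted p = 0.00017). Ppard, at chr17:28232700-28301474 on the plus strand, measured 3.90, 4.34 and 4.17 FPKM untreated and 16.1, 12.8 and 14.1 FPKM with cyclophosphamide. All treated values were above 12 FPKM and all untreated ones below 5 FPKM, and the log2 fold change was 1.76 ± 0.10 (SE, limma adjusted p = 3.7e-06), or 3.39-fold higher. Ppara, the form most known from liver, was low, between 0.412 and 0.770 FPKM in the 6 libraries, and was not called, at 0.14 ± 0.23 (SE, limma adjusted p = 0.59).

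Of the oxysterol receptors, Nr1h2 (LXR beta) was the abundant form. It measured 25.9, 28.5 and 27.0 FPKM untreated and 38.7, 37.2 and 36.1 FPKM with cyclophosphamide, without overlap, a log2 fold change of 0.46 ± 0.06 (SE, limma adjusted p = 0.00032). Nr1h3 (LXR alpha) measured 0.876, 0.980 and 0.541 FPKM and 0.869, 1.06 and 1.2 FPKM. Its groups overlapped and it was not called, at 0.37 ± 0.23 (SE, limma adjusted p = 0.18). The vitamin D receptor Vdr was between 0.246 and 0.629 FPKM in the 6 libraries and was called lower, at -0.65 ± 0.23 (SE, limma adjusted p = 0.033). The Vdr call was lost without the filter on low values (adjusted p = 0.15, limma) and when untreated replicate 2 or 3 or cyclophosphamide replicate 2 or 3 was left out (adjusted p from 0.081 to 0.11), and the estimate shrank to -0.36 with a pseudocount of 0.5 and -0.23 with 1.

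The retinoid X receptors, the shared partners of the retinoid, thyroid hormone and lipid receptors, were higher in both tested members. Rxrb, at chr17:34031812-34038393 on the plus strand, measured 13.6, 16.6 and 14.7 FPKM in untreated and 33, 33.9 and 32.2 FPKM in cyclophosphamide libraries. The treated libraries lay within 2 FPKM of each other and well above the untreated ones, with a log2 fold change of 1.14 ± 0.08 (SE, limma adjusted p = 1e-05), or 2.21-fold higher. Rxra measured 7.90, 9.99 and 9.39 FPKM and then 18.3, 15.9 and 16.9 FPKM, again without overlap, at 0.90 ± 0.10 (SE, limma adjusted p = 0.00011). Rxrg, known from muscle and brain, had 2 reads in 1 untreated library and none in the other libraries. The summed level of the RXR genes was 21.5 to 26.6 FPKM untreated and 49.1 to 51.3 FPKM with cyclophosphamide.

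Among the partners that bind retinoic acid or thyroid hormone, Rarg was also higher, Thra and Thrb were lower and Rara was not called. Rarg, a retinoic acid receptor, measured 9.79, 11.3 and 9.82 FPKM untreated and 15.8, 15.3 and 14.5 FPKM treated, without overlap, and was higher by a log2 fold change of 0.56 ± 0.08 (SE, limma adjusted p = 0.0004). Rara measured 6.46, 6.86 and 6.49 FPKM and 6.94, 6.81 and 5.93 FPKM. The groups overlapped, the estimate of -0.01 ± 0.09 (SE, limma adjusted p = 0.91) was not called, and its sign differed between scalings. Rarb had 1 read in all. The thyroid hormone receptor Thra measured 12.4, 11.7 and 11.1 FPKM in untreated and 7.95, 8.22 and 8.22 FPKM in cyclophosphamide libraries. Its groups were apart, with a log2 fold change of -0.52 ± 0.07 (SE, limma adjusted p = 0.0003). Thrb measured 2.35, 1.63 and 1.82 FPKM and 1.37, 1.09 and 1.17 FPKM, also without overlap, at -0.62 ± 0.17 (SE, limma adjusted p = 0.012), or -0.40 with a pseudocount of 1.

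Some exons of Thra share 263 bases, 5.70% of its exon bases in GENCODE M21, with Nr1d1 on the opposite strand. Nr1d1, the circadian repressor REV-ERB alpha, rose from 6.28 ± 0.21 FPKM (SD, n = 3) to 55.2 ± 10 FPKM (SD, n = 3), or 3.10 ± 0.12 (SE, limma adjusted p = 9.2e-07) as a log2 fold change, while Thra was lower. Whether the counting used strand is not stated in the labels or processing notes, so how reads in the shared bases were assigned is not known. Their part in the Thra value was not tested. Rarb shares 34.1% of its exon bases with Top2b on the opposite strand. Rarb had 1 and 0 reads over the libraries of each group, and Top2b had 13093 and 11478. Nr1i3 shares 74.9% with Tomm40l, also opposite, and had 2 and 1 reads beside 455 and 285 for Tomm40l. Nr2f6 shares 54.4% of its exon bases with Ocel1, and Nr2c2 shares 30.7% with Mrps25, both on the opposite strand. Ocel1 was not called, at -0.17 ± 0.14 (SE, limma adjusted p = 0.31), and Mrps25 was lower, at -0.51 ± 0.11 (SE, limma adjusted p = 0.0033), while Nr2c2 was called higher.

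Esrra encodes ERR alpha, an orphan receptor that drives mitochondrial genes with the PGC-1 coactivators. It measured 10.6, 13.7 and 11.3 FPKM in untreated and 26.6, 21.6 and 22.2 FPKM in cyclophosphamide libraries. Treated values were all above untreated ones, and the log2 fold change was 0.98 ± 0.12 (SE, limma adjusted p = 0.00015). Its exons share 73 bases with Trmt112 on the opposite strand, which was higher too, at 0.40 ± 0.12 (SE, limma adjusted p = 0.015). The related Esrrg had 4, 3 and 3 reads in untreated libraries and none with cyclophosphamide, and Esrrb had at most 4 reads in a library, so neither was tested.

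Rora, a receptor of the circadian and lipid programmes whose gene spans 734 kb, measured 1.78, 1.69 and 1.77 FPKM untreated and 6.24, 4.62 and 6.32 FPKM with cyclophosphamide. Every treated value exceeded 4 FPKM and no untreated one reached 2 FPKM. The log2 fold change was 1.64 ± 0.14 (SE, limma adjusted p = 2.5e-05), or 3.13-fold higher. Rorb, known from brain and retina, was between 0.0627 and 0.207 FPKM and was not called, at -0.53 ± 0.24 (SE, limma adjusted p = 0.075), although its groups did not overlap. It was called lower when cyclophosphamide replicate 1 was left out (adjusted p = 0.015, limma), with upper-quartile scaling (0.045) and in limma-voom on the recovered reads (0.030).

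Among the orphan receptors of subfamily 2, Nr2f2 changed most. Nr2f2 (COUP-TFII) is known in the ovary from theca and stroma. It measured 3.33, 2.99 and 2.91 FPKM in untreated and 10.8, 7.81 and 9.30 FPKM in cyclophosphamide libraries. The treated libraries were all above the untreated ones and spread over 3 FPKM among themselves. The log2 fold change was 1.56 ± 0.13 (SE, limma adjusted p = 2.2e-05), or 2.94-fold higher. Of 6 tested markers of theca and stroma Ptch1 was higher, at 0.94 ± 0.08 (SE, limma adjusted p = 2.2e-05), the collagens Col1a1 and Col3a1 were lower, at -1.96 and -1.75, and 3 were not called. Their summed level was 29.7 to 35.5 FPKM untreated and 16.5 to 18.1 FPKM treated, and their part in the Nr2f2 value was not tested. The theca-defining genes Cyp17a1 and Insl3 had at most 8 reads over the 3 libraries of a group. The related Nr2f1 was between 0.221 and 0.432 FPKM and was not called, at 0.41 ± 0.20 (SE, limma adjusted p = 0.093).

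The testicular receptors Nr2c1 and Nr2c2 differed less. Nr2c1 measured 6.48, 6.40 and 6.93 FPKM and then 9.35, 8.39 and 9.67 FPKM, without overlap, and was higher by 0.46 ± 0.08 (SE, limma adjusted p = 0.0015). Nr2c2 measured 3.16, 3.17 and 2.79 FPKM and 3.89, 3.76 and 3.82 FPKM, without overlap, and was called higher at 0.32 ± 0.10 (SE, limma adjusted p = 0.021). The Nr2c2 call was lost with upper-quartile scaling (log2 fold change 0.21, adjusted p = 0.11, limma), without untreated replicate 3 (0.086) and without cyclophosphamide replicate 3 (0.058). Nr2f6 (EAR2) measured 13.4, 18.4 and 17.1 FPKM and 15.7, 14.3 and 13.6 FPKM with overlapping groups, untreated replicate 1 being the lowest of all. It was not called, at -0.16 ± 0.12 (SE, limma adjusted p = 0.27), but was called lower without that library, at -0.29 with an adjusted p of 0.026 in limma.

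The NR4A receptors are immediate early genes, transcribed within minutes to hours of cyclic AMP, calcium or stress signals, and known as targets of luteinizing hormone in the follicle. The stretches before their RefSeq starts are shown because these 3 members share a feature there. Capitals mark TGACG, the core of the cyclic AMP response element, on either strand. The Nr4a1 window is chr15:101266596-101266845 on the plus strand, within the span that the table gives for the gene, the Nr4a2 window is chr2:57124004-57124253 on the minus strand, and the Nr4a3 stretch is chr4:48045055-48045152 on the plus strand, all in GRCm38.p6.
Nr4a1: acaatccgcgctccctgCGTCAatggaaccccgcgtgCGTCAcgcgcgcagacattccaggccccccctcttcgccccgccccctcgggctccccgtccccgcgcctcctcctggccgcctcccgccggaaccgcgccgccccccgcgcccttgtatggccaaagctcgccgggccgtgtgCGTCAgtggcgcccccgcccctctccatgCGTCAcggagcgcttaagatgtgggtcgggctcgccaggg
Nr4a2: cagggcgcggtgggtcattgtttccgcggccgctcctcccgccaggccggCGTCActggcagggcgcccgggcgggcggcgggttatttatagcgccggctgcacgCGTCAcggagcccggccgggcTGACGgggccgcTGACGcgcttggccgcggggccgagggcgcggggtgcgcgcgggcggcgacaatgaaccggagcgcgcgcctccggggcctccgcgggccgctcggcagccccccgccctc
Nr4a3: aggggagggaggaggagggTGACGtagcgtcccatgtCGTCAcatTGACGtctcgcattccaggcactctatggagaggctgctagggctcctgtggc
Each of the 3 windows of 250 bases holds 4 matches. In Nr4a1 they begin 233, 213, 69 and 40 bases before the start, in Nr4a2 200, 144, 123 and 111 bases, and in Nr4a3 231, 213, 205 and 147 bases. The last of these in Nr4a3 lies outside the printed stretch, which stops where an exon of GENCODE M21 begins. Among 32851 promoter windows 17.8% hold at least 1 TGACG, as do 21.3% of the 61 member windows. In 45 of all windows (0.137%) 4 or more are present. Of the members with a window, Nr4a1, Nr4a2 and Nr4a3 are the ones in that class. The cut of 4 equals the count in these 3 windows, so that share is no test of them. The full palindrome TGACGTCA, in 1.55% of all windows, is in none of the 3.

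The 3 NR4A members differed in level and in change. Nr4a1 (NUR77) measured 41.7, 43.0 and 34.5 FPKM in untreated and 53.3, 44.2 and 43.6 FPKM in cyclophosphamide libraries. The lowest treated value was just above the highest untreated one, and the log2 fold change of 0.24 ± 0.11 (SE, limma adjusted p = 0.08) was not called. It was called with limma-voom on the recovered reads (0.28, adjusted p = 0.019) and with scaling by total reads (0.29, adjusted p = 0.035). Nr4a2 (NURR1) was lower in level, at 4.01, 3.95 and 3.75 FPKM untreated and 8.06, 6.16 and 7.43 FPKM treated. Its groups were apart, with a log2 fold change of 0.86 ± 0.11 (SE, limma adjusted p = 0.00025). Nr4a3 (NOR1), the lowest of the 3, measured 1.67, 1.50 and 1.37 FPKM and then 7.57, 4.04 and 5.75 FPKM. Treated values were all above untreated ones, with replicate 1 the highest and replicate 2 the lowest of the treated libraries, and the log2 fold change was 1.83 ± 0.21 (SE, limma adjusted p = 0.00014), or 3.54-fold higher. Of all 33 tested receptors 22 had their highest treated value in cyclophosphamide replicate 1, against 41.9% of all tested genes.

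Not tested were 11 of the 44 members. Hnf4a and Hnf4g, known from liver and gut, and Nr0b1 had no read. The other 8 were Esrrb, Esrrg, Rarb, Rxrg, Nr1i2, Nr1i3, Nr2e1 and Nr2e3, with at most 4 reads in any library. The xenobiotic sensors Nr1i2 (PXR) and Nr1i3 (CAR) are therefore not measurable here, with 2 and 3 reads over the 6 libraries.

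Added over the 44 members, the level per kilobase was 361 ± 8.6 FPKM (SD, n = 3) untreated and 355 ± 25 FPKM (SD, n = 3) with cyclophosphamide. The sum thus differed by less than the spread between libraries while its make-up changed. Nr1h4 held 15.1% of it untreated and 1.96% treated, Nr5a2 held 8.24% and 2.52%, Esr2 held 6.71% and 0.839%, and Pparg held 7.02% and 3.78%. Rxrb went from 4.13% to 9.34%, Esrra from 3.28% to 6.60%, Rxra from 2.51% to 4.81% and Ppard from 1.14% to 4.03%. The 5 highest members of each library held 53.7% ± 0.76 (SD, n = 3) of the sum untreated and 54.8% ± 1.6 (SD, n = 3) treated. In untreated libraries these were Nr1h4, Nr5a1, Nr4a1, Nr5a2 and Nr1h2, with Pparg in place of Nr1h2 in replicate 1, and in the 3 treated libraries Nr5a1, Nr4a1, Nr1h2, Rxrb and Esrra.

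**Figure D3:**
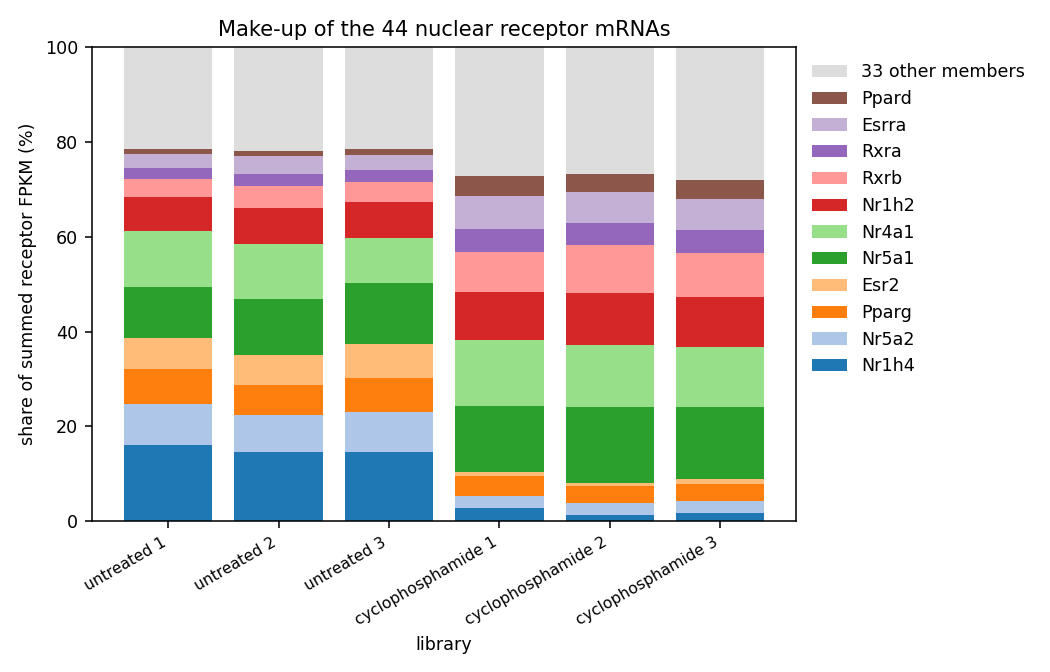
Share of the summed FPKM of the 44 receptors in each of the 6 libraries, with 11 receptors in colour and the 33 others in grey. In the cyclophosphamide bars the Nr1h4 and Esr2 blocks shrink, to 1.96% and 0.839% on average, and Rxrb, Esrra and Ppard widen.

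Related receptors often bind the same DNA elements. Their levels were also set against each other within each library, per kilobase. Of 10 pairs compared, 7 had ratios that did not overlap between the groups. Each of the 7 had a two-sided exact permutation p of 0.1, the smallest that 3 against 3 libraries allow. It was 0.14 after Benjamini-Hochberg adjustment over the 10. Single genes did not overlap in 73.4% of all those tested, and ratios of other gene pairs were not computed. Nr5a1 over Nr5a2 went from 1.44 ± 0.17 to 5.98 ± 0.34 (mean ± SD, n = 3). Pparg over Ppard went from 6.15 ± 0.66 to 0.936 ± 0.042, so that Pparg lost its lead. Esr2 over Esr1 went from 31.9 ± 7 to 18.1 ± 3.5, both being lower. In the NR4A group, Nr4a1 over Nr4a3 went from 26.2 ± 2.1 to 8.52 ± 2.1 and Nr4a1 over Nr4a2 from 10.2 ± 0.86 to 6.55 ± 0.65. Rarg over Rara rose from 1.56 ± 0.077 to 2.32 ± 0.11, and Rxrb over Rxra from 1.65 ± 0.079 to 1.95 ± 0.17. The other 3 pairs had overlapping ratios, with Thra over Thrb at 6.18 ± 0.95 and 6.78 ± 0.88, Nr1h2 over Nr1h3 at 36.2 ± 12 and 36.5 ± 7.3, and Nr2c1 over Nr2c2 at 2.19 ± 0.26 and 2.39 ± 0.15.

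**Figure D4:**
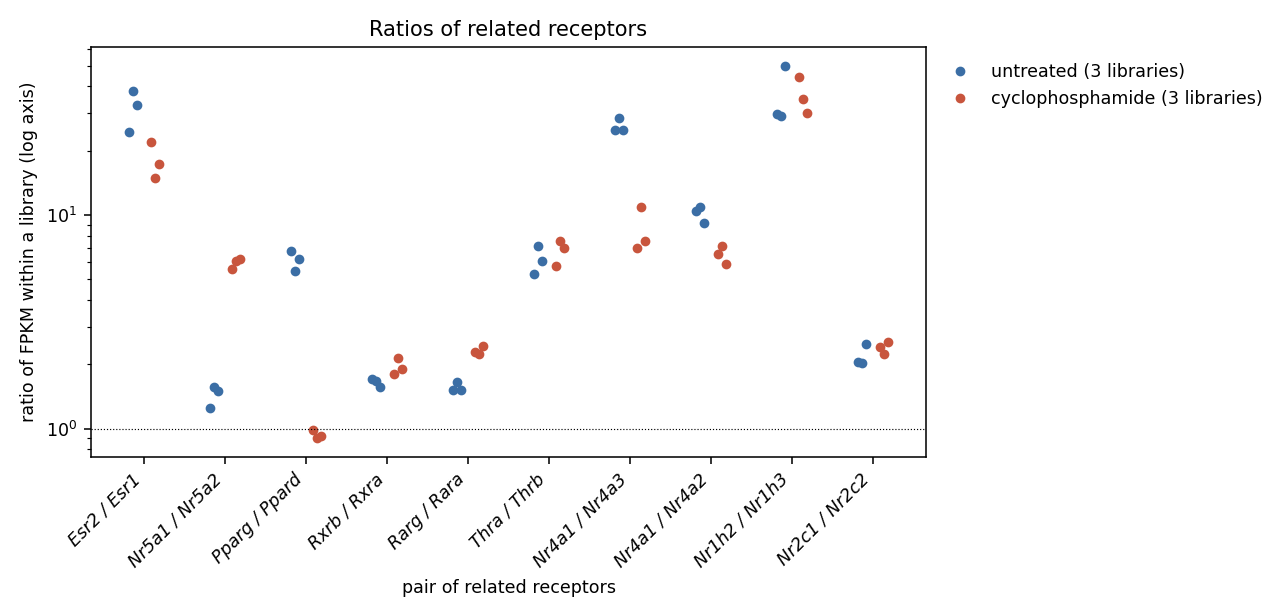
Ratio of FPKM between related receptors on a log axis, 1 point per library for the 10 pairs, with untreated and cyclophosphamide libraries in separate colours and a dotted line at equal levels. Nr5a1 over Nr5a2 lies higher and Pparg over Ppard lower in the cyclophosphamide libraries, the latter beside the dotted line.

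Gene length moved with direction. Of the 33 tested receptors 8 have genes spanning at least 100 kb (Esr1, Nr3c2, Thrb, Pparg, Nr5a2, Rora, Rorb and Nr6a1). Their median log2 fold change was -0.75, with 7 below 0 and Rora above, while the 25 shorter ones had a median of 0.37. The same split was present over all tested genes, with a median of -0.66 in 1828 long genes and 0.05 in 12923 shorter ones. Of those 1828 long genes 1354 were below 0 and 474 above, and calls among them were not counted. Of the 8 long receptors 5 were called lower, Rora was called higher, and Rorb and Nr6a1 were not called. The part of gene length in these values was not tested.

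The proteins that work with the receptors were read from lists of coregulators. Of 21 tested coactivators 14 were higher and 3 lower, with a median of 0.47. Over all tested genes 33.3% were higher and 35.9% lower with a median of -0.02. The acetyltransferase Ep300 was higher, at 0.76 ± 0.07 (SE, limma adjusted p = 3.1e-05), as was the PGC-1 relative Pprc1, at 1.15 ± 0.07 (SE, limma adjusted p = 6.5e-06), while the acetyltransferase Kat2b was lower, at -1.65 ± 0.09 (SE, limma adjusted p = 3.4e-06). Of 11 corepressors 3 were higher and 4 lower with a median of -0.04, which was 0.00 with total-read scaling. The corepressor complex members Tbl1x and Gps2 were called, at -0.31 ± 0.06 (SE, limma adjusted p = 0.0023) and 0.33 ± 0.07 (SE, limma adjusted p = 0.003), and Hr, a corepressor of thyroid hormone and vitamin D receptors, was lower, at -1.55 ± 0.18 (SE, limma adjusted p = 0.00014). The 11 chaperones that fold steroid receptors had 4 higher and 2 lower with a median of 0.02, and 2 higher and 4 lower with upper-quartile scaling. The cochaperone Fkbp5, a glucocorticoid target, was lower at -1.15 ± 0.06 (SE, limma adjusted p = 2.9e-06), while Ptges3 (p23) and Ppid were higher, at 1.0 ± 0.09 (SE, limma adjusted p = 2.7e-05) and 0.93 ± 0.06 (SE, limma adjusted p = 8.3e-06).

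Genes that make or move ligands, or that textbooks list as targets, were read next to their receptors. For comparison, 33.3% of all tested genes were higher and 35.9% lower, with a median of -0.02. Beside the higher Rarg and RXR genes, the retinoic acid genes were mostly lower, 8 of 14 tested with 1 higher and a median of -0.96. Cyp26b1, which degrades retinoic acid and is itself induced by it, went from 139 ± 4.8 FPKM (SD, n = 3) to 5.16 ± 1.7 FPKM (SD, n = 3), or -4.78 ± 0.19 (SE, limma adjusted p = 9.2e-07) as a log2 fold change. The synthesizing enzyme Aldh1a2 and the carrier Crabp2 were lower too, at -2.77 ± 0.23 (SE, limma adjusted p = 2.2e-05) and -1.90 ± 0.09 (SE, limma adjusted p = 2e-06). Beside the lower Thra and Thrb, 3 of 5 tested thyroid hormone genes were lower with a median of -0.76, among them the transporter Slc16a10 at -0.76 ± 0.14 (SE, limma adjusted p = 0.0017) and the target Hr, while the target Klf9 was higher, at 1.43 ± 0.07 (SE, limma adjusted p = 2.2e-06).

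Lipid receptor targets differed by list, beside 33.3% higher and 35.9% lower over all tested genes. Beside the higher Nr1h2, 10 of 11 tested LXR targets were lower and 1 was higher, with a median of -0.93. The cholesterol exporter Abca1 was at -1.40 ± 0.07 (SE, limma adjusted p = 1.9e-06), the desaturase Scd2 at -2.58 ± 0.09 (SE, limma adjusted p = 4.7e-07) and Lpcat3, which remodels phospholipids, at -1.28 ± 0.06 (SE, limma adjusted p = 2e-06). The single higher gene was Arl4c, a small GTPase, at 1.50 ± 0.10 (SE, limma adjusted p = 6.5e-06), named after its value was seen. Of 17 tested PPAR targets 6 were higher and 8 lower, with a median of -0.07. The thioesterase Acot2 and the kinase Pdk4 were higher, at 3.59 ± 0.08 (SE, limma adjusted p = 1.1e-07) and 1.61 ± 0.07 (SE, limma adjusted p = 1.6e-06), and the fatty acid transporter Cd36 was lower, at -2.11 ± 0.11 (SE, limma adjusted p = 2.3e-06). Beside the higher Esrra, 8 of 11 tested ERR targets were lower and 2 higher with a median of -0.42. The 2 higher were Pdk4, which the PPAR list also holds, and Esrra itself.

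Steroid targets also split, again beside 33.3% higher and 35.9% lower over all tested genes, or 69.3% called in either direction. Beside the higher Nr3c1, 7 of 13 tested glucocorticoid receptor targets were higher and 3 lower, with a median of 0.37. The mTOR inhibitor Ddit4 and the metallothionein Mt1 were higher, at 3.25 ± 0.09 (SE, limma adjusted p = 2.6e-07) and 2.72 ± 0.12 (SE, limma adjusted p = 1.2e-06), and the kinase Sgk1 was lower, at -2.63 ± 0.11 (SE, limma adjusted p = 9.2e-07). Beside the lower Esr2 and Esr1, 7 of 12 tested estrogen and progesterone receptor targets were lower and 2 higher, with a median of -0.32. The estrogen target Greb1 and the cyclin Ccnd1 were lower, at -1.22 ± 0.08 (SE, limma adjusted p = 6.9e-06) and -1.30 ± 0.09 (SE, limma adjusted p = 9.7e-06), and Pgrmc1, a membrane haem protein, was higher, at 1.18 ± 0.08 (SE, limma adjusted p = 8.8e-06). Of 4 tested vitamin D genes, ligand-making enzymes among them, 2 were called, both higher, and the median was 0.54. The enzyme Cyp27b1 was at 2.19 ± 0.27 (SE, limma adjusted p = 0.00018), from 5 reads untreated and 68 treated over 3 libraries. Cd14 was at 1.32 ± 0.21 (SE, limma adjusted p = 0.00076). The target Cyp24a1 was not tested, with 3 and 13 reads over the 3 libraries of each group. Beside the higher Nr5a1 and lower Nr5a2, 7 of 10 tested NR5A1 targets were lower and 1 higher, with a median of -0.93. The tested ones include an inhibin subunit and hormone receptors besides steroidogenic genes. That subunit, those receptors and Hsd17b1 were lower and also count as granulosa markers above. The higher one was Star, which carries cholesterol into mitochondria, at 4.19 ± 0.16 (SE, limma adjusted p = 8.8e-07), and the enzymes Hsd3b1 and Hsd17b1 were lower, at -1.95 ± 0.10 (SE, limma adjusted p = 2.1e-06) and -1.91 ± 0.07 (SE, limma adjusted p = 7.5e-07). Most of these genes answer to other regulators too, and no receptor's binding or activity was measured.

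**Figure D5:**
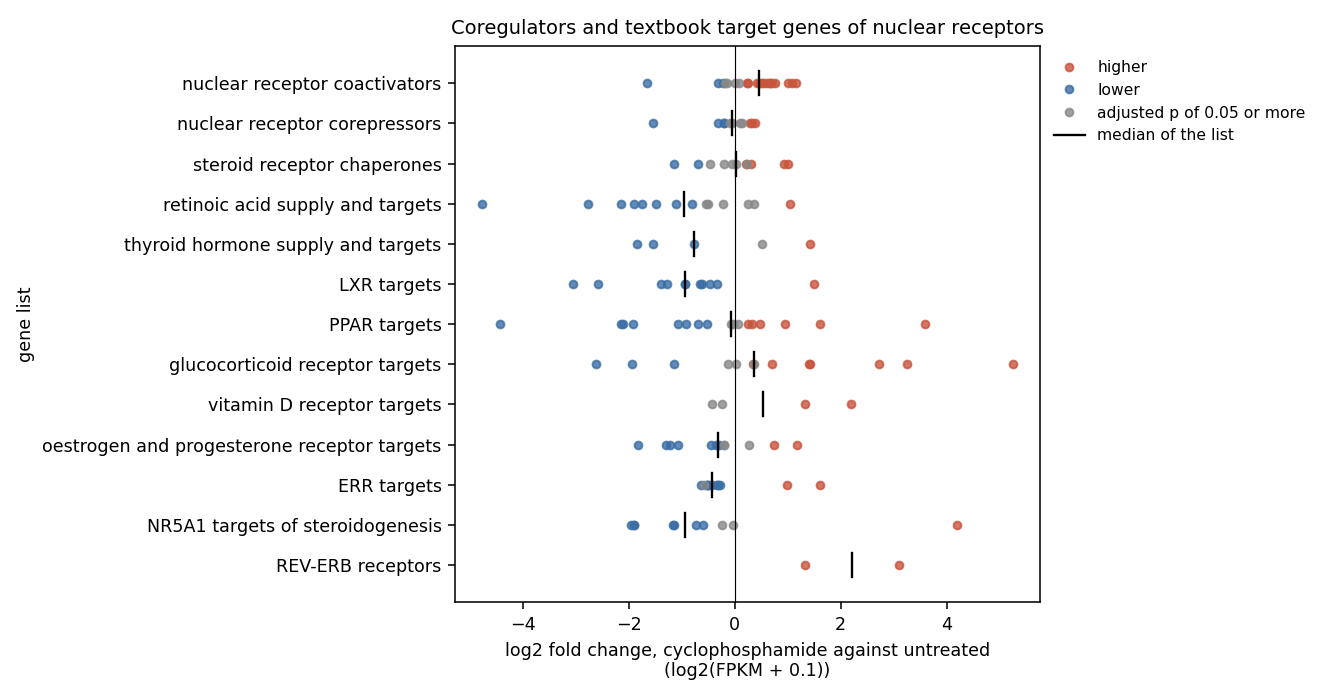
Log2 fold change on the log2(FPKM + 0.1) scale of each tested gene in 13 lists of coregulators, ligand genes, textbook targets and other receptors, with colour for the call and a bar at the list's median. LXR targets sit left of 0 apart from 1 gene, with a median of -0.93, and coactivators mostly right of it, with a median of 0.47.

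Outside the 44 members, the REV-ERB genes Nr1d1 and Nr1d2, which compete with Rora and Rorb for the same elements, were both higher, Nr1d2 at 1.33 ± 0.06 (SE, limma adjusted p = 1.6e-06).

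Markers of other cells differed between the groups as well, where 33.3% of all tested genes were higher and 35.9% lower. Macrophages express Nr1h3, Pparg and the NR4A genes. Of 11 macrophage markers 4 were tested, with Csf1r, Cd68 and Cd14, which the vitamin D list also holds, higher and Lyz2 lower, and a summed level of 7.61 to 8.58 FPKM untreated and 11.6 to 15.5 FPKM treated, with Ptprc at 9 and 7 reads and Adgre1 at 3 and 1 reads over the 3 libraries of each group. Surface epithelium markers were lower in 5 of 6 tested and summed to 107 to 121 FPKM untreated and 50.3 to 73.6 FPKM treated. Most of these sums came from the keratins Krt8 and Krt18, and each other marker of the list had means under 1 FPKM. Smooth muscle markers were lower in 5 and higher in 2 of 8 tested and summed to 89.9 to 101 FPKM and 15.8 to 26.3 FPKM, most of it Acta2 in untreated cells. Endothelial markers summed to 0.756 to 1.01 FPKM and 2.10 to 2.69 FPKM, with a median of -0.32 over the 3 tested. Of these Esam was higher, from a mean of 0.261 FPKM to 1.80 FPKM, and Tek and Cdh5 were not called, at -0.64 and -0.32. Oocyte markers had 2 of 3 tested higher, with sums of 0.936 to 1.37 FPKM and 3.33 to 4.95 FPKM, most of the latter from Gdf9, and Figla listed at 0. Their part in the receptor levels was not tested.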

How the data were processed

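Polyadenylated RNA of 6 libraries was measured, 3 untreated and 3 given cyclophosphamide for 24 h, with groups taken from the treatment label. CASAVA, the aligner HISAT2 (version 2.0.5) and build GRCm39 are named, per the submitters' processing notes. Tool, strand setting and annotation of the read counting were not given in the sources used here. The table is named as raw counts, but its deposited values are FPKM made by the authors. Multiplied by the table's gene length, 100% of values were whole reads within 0.01, which gave the depth of 16458385 to 17607586 reads. Gene coordinates matched GENCODE M21 (GRCm38) in start and end for 98.3% of 54495 shared IDs and for 42 of the 44 members, so they are read as GRCm38.

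Tests used limma (version 3.58.1, under R 4.3.3) on log2(FPKM + 0.1) with a trend of variance on level and Benjamini-Hochberg adjustment over 14751 genes, two-sided. Of 27510 genes with a read, these had 15 reads or more in total and, in 3 libraries or more, the equivalent of 10 reads. The fit and the recovery of reads were tested on simulated data. The depth of a member sets its precision, from 4 reads to 4069 reads in a library among those tested.

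The members and lists were chosen with earlier results of these data known. Tested members are given in each library where a group mean reached 1 FPKM, otherwise by range. Esr1 and Nr6a1, under that mean, are also given in each library, and Nr3c2 is given by its reads. Of each list the 3 called genes with the smallest p are named, and all called genes where 5 or fewer were tested, except some genes that are not reported here. Alternatives were other pseudocounts, filters and scalings, limma-voom on recovered reads, a replicate block, a threshold of 0.01 and leaving out each library. Promoter windows came from RefSeq (GRCm38.p6), with entries for 40 members, some with several windows (61 in all).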

Additional observations from a re-analysis of the deposited data

How the results depend on the processing

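Over the alternatives run, 13 to 15 members were higher and 7 to 11 lower, beside 14 and 10 as reported. Leaving out 1 library at a time gave 13 to 14 higher and 9 to 11 lower, and a threshold of 0.01 gave 13 and 7. No called member changed direction. Nr2c2, Nr3c2, Thrb and Vdr lost their call under at least 1 alternative, and Nr4a1, Nr2f6 and Rorb gained one. At the threshold of 0.01 Nr2c2, Nr3c2, Thrb and Vdr lost their call, Thrb under no other alternative, and the other values stand beside each gene or with the replicate block. Upper-quartile scaling moved the median of all genes from -0.02 to -0.13 and split the calls into 4196 higher and 6001 lower, beside 4919 and 5300 as reported, and total-read scaling gave 5234 and 5021.

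The groups share replicate numbers 1 to 3. Deviations of same-numbered libraries from their group means correlated at -0.0786, 0.0086 and -0.0295, and no library correlated best with its own number. The numbers were therefore not taken to pair the samples. With the replicate number as a block 15 members were higher and 9 lower, Nr4a1 being called (limma adjusted p = 0.049) and Vdr not (0.072), and over all genes 4767 were higher and 5143 lower.

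Depth limits the 11 members that were not tested, with at most 4 reads in a library. Of the 8 tested members under 1 FPKM in both groups, Esr1, Nr3c2 and Vdr were called, with estimates that depend on the pseudocount.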
